A study of Homo sapiens with 8 samples.

Results

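The comparison described here is SI-2 against vehicle in bortezomib-resistant (BR) LP-1 cells. LP-1 is a human multiple myeloma cell line, that is, a line of malignant plasma cells. The members were the 4 libraries whose labels name BR cells, out of 8 libraries in the series. Of these, 2 were from BR cells that received the DMSO vehicle and 2 from BR cells that received 25 nM SI-2 for 24 h before harvest. All 4 cultures came from the line kept with the proteasome inhibitor bortezomib for 2 months, so that resistance is common to both conditions, and it is a single resistant line. The other 4 libraries are wild-type (WT) LP-1 cells with the same vehicle and SI-2 conditions, 2 of each. They are used to set the SI-2 difference in BR cells beside that in WT cells. The WT libraries also entered the same fit, so the choice of genes tested, the scaling and the estimated spread rest on all 8 libraries. The search for genes found almost only in a given library included them as well. The study describes its experiments on treated BR cells as biologically independent, while the labels give the libraries only a replicate number, and the tests measure the spread between these libraries.

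SI-2 is a small-molecule inhibitor of SRC-3, the steroid receptor coactivator encoded by NCOA3. SRC-3 has no DNA-binding site of its own. It is recruited by nuclear receptors and other transcription factors and brings histone acetyltransferases (CREBBP and EP300) and arginine methyltransferases (PRMT1 and CARM1) to their target genes. NSD2 is the methyltransferase that places 2 methyl groups on lysine 36 of histone H3, and it is driven by the t(4;14) translocation in a class of myelomas. The question for these libraries was which transcripts change when SRC-3 is inhibited in resistant cells, with interest in drug efflux pumps and survival genes. The agent acts on a protein, so the mRNA of its target does not check the treatment.

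The BR libraries held 18192794 to 18570027 estimated counts each, nearly equal in depth. They carried plasma cell genes, with PRDM1 at 3833 to 4672 counts, XBP1 at 12060 to 17637 and JCHAIN at 83587 to 94553, although SLAMF7 was low at 15 to 20 and FCRL5 was at 0 to 5. The B cell genes MS4A1, PAX5, CD22 and CD79B, which plasma cells switch off, stood at 0 to 2 counts in every BR library. BLK and SPIB, which B cells also use, were present at 380 to 705 and 153 to 228 counts. Of the myeloid markers, CD14, a monocyte gene, was at 0 to 2 counts and LYZ, the lysozyme gene, at 57 to 89. PECAM1, listed as an endothelial marker, was present in all 4 BR libraries at 1475 to 1720 counts.

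One library stood apart. In BR SI-2 2, 159 genes had at least 20 counts and over 4 times the highest CPM (counts scaled to a common library total) of the other 7 libraries, where the same rule found 0 or 1 gene in each. COL1A1, a chain of type I collagen, had 1032 counts in BR SI-2 2 and 2 to 6 in the other 7 libraries. COL3A1, of type III collagen, had 998 there and 1 to 5 elsewhere, and the small matrix proteoglycan DCN had 143 against 0 or 1. Genes of secretory and lining epithelia followed the same pattern: PAEP had 340 counts against 0 to 2, SLC34A2 had 199 against 0 to 5, and PIGR had 242 against 21 to 42. The 8 stromal and endothelial markers listed summed to 1487 and 1734 counts in the vehicle libraries and to 1637 and 4123 in the SI-2 libraries, of which PECAM1 made up most except in BR SI-2 2. COL1A1, COL1A2, COL3A1, LUM and DCN together summed to 2412 counts in BR SI-2 2 and to 7 to 13 in the other 3 BR libraries. The 159 genes took 14766 counts, 0.0812% of that library, against 373 to 440 counts in each of the other BR libraries. These genes, named after their values were seen, were at that level in only 1 of the 2 SI-2 libraries and are not counted here as a response to SI-2. In a bulk library a greater number of cells of a type and more RNA in each cell cannot be told apart. Nor does a count show that a transcript came from the cultured cells. The source of these transcripts was not tested.

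**Figure D1:**
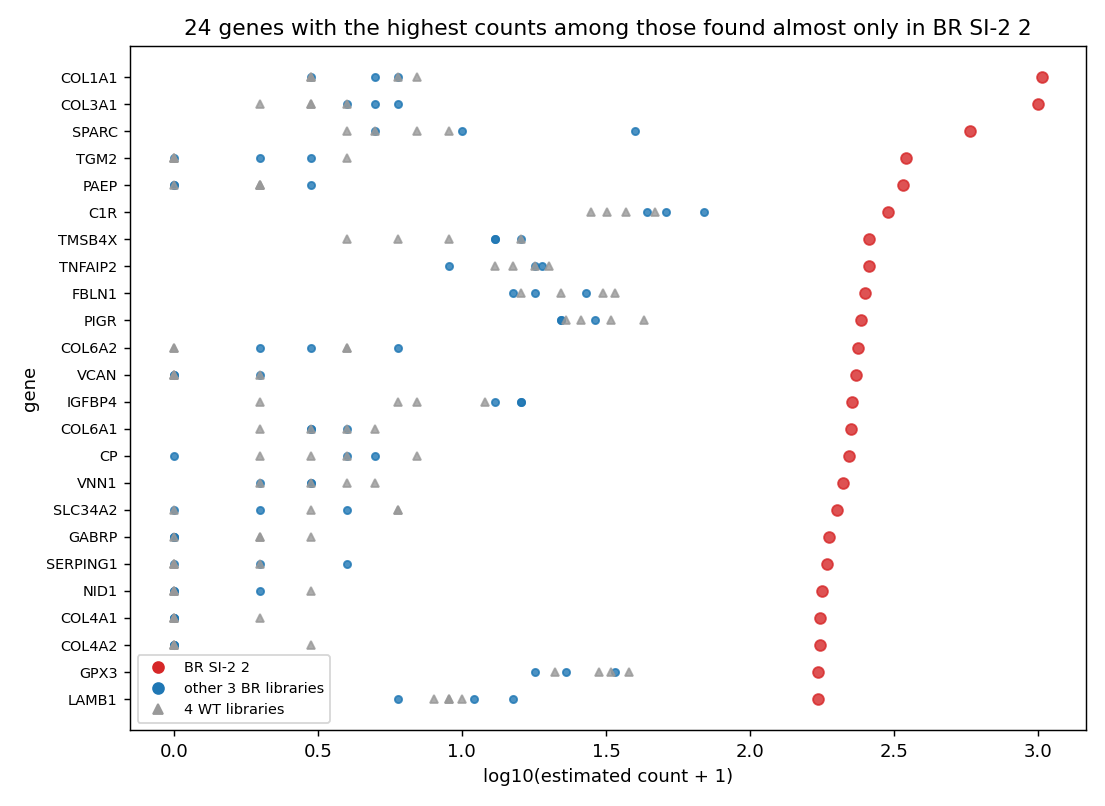
Estimated counts (log10 of count + 1, horizontal axis) of the 24 genes with the highest counts among the 159 found almost only in BR SI-2 2, with 1 point for each of the 8 libraries. The point of BR SI-2 2 lies at 171 counts or more for every gene drawn, and all other libraries lie at 68 counts or fewer.

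The same library was, apart from those genes, the closest of all to a vehicle library. Over the 13896 genes tested, the absolute log2 CPM difference between BR SI-2 2 and BR vehicle 2 had a median of 0.088. It was 0.256 between the 2 vehicle libraries and 0.259 between the 2 SI-2 libraries. BR SI-2 1 and BR vehicle 1 differed by 0.222. Among genes with a mean of at least 20 counts, the squared difference between BR SI-2 2 and BR vehicle 2 was 1.96 times what counting noise alone gives, measured at the median gene, and it was 12.9 times between the vehicle libraries and 14.1 times between the SI-2 libraries. The 2 libraries thus differed by more than counting noise and were kept as separate samples. The counts are estimates, so this ratio cannot show whether the 2 libraries came from separate cultures. In WT cells the corresponding pair, WT vehicle 2 and WT SI-2 2, was also close, with a median of 0.106, whereas the remaining 26 of the 28 pairs lay at 0.161 or above. The labels give these libraries a shared replicate number and say nothing more of how they were made.

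**Figure D2:**
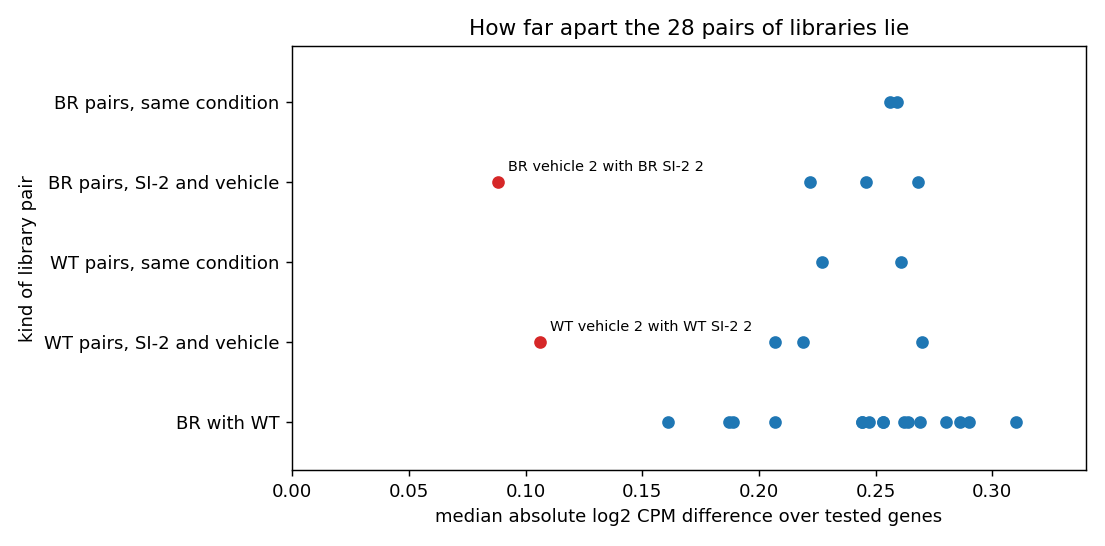
Median absolute log2 CPM difference over the tested genes (horizontal axis) for each of the 28 pairs of libraries, by kind of pair. BR vehicle 2 with BR SI-2 2 (0.088) and WT vehicle 2 with WT SI-2 2 (0.106) lie apart from all other pairs, which start at 0.161.

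No gene passed the test for SI-2 against vehicle in BR LP-1. By the quasi-likelihood test of edgeR with Benjamini-Hochberg adjustment, 0 of 13896 genes (0%) had an adjusted p under 0.05, and 167 (1.20%) had an unadjusted p under 0.05, of which 123 were higher and 44 lower with SI-2. DESeq2 called 1 gene, CORO7-PAM16, with 102 genes at an unadjusted p under 0.05. Over all genes the median log2 fold change was -0.001 and the median size of the change was 0.127 on the log2 scale. For 9933 genes (71.5%) the difference between the vehicle libraries exceeded the difference between the condition means. The lower of the SI-2 values exceeded the higher of the vehicle values for 1480 genes (10.7%), and the reverse held for 1554 (11.2%), judged on CPM scaled by library, as is every overlap given below beside raw counts. In WT cells these counts were 1509 (10.9%) and 1712 (12.3%).

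The call depends on BR SI-2 1. Without it, with the single remaining SI-2 library assumed to vary like the other conditions, 67 genes had an adjusted p under 0.05, all higher with SI-2, and 63 of the 67 were among the 159 genes found almost only in BR SI-2 2. The other 4 were HSPG2, APOL1, RIMKLB and TC2N. RIMKLB had 103 and 132 counts with vehicle and 70 and 683 with SI-2. Without BR SI-2 2, 0 genes were called by edgeR and 494 had an unadjusted p under 0.05. With BR SI-2 2 kept and the 159 genes removed from the table, 0 were called and 156 had an unadjusted p under 0.05. Without BR vehicle 2, CORO7-PAM16 alone was called (adjusted p = 0.0137).

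The data limit how large an effect could have been. For 10762 of the 13896 genes (77.4%) the 95% interval of the SI-2 difference lay wholly within a 2-fold change either way, for 5449 (39.2%) within a 1.5-fold change, and for 13414 (96.5%) within a 4-fold change. The limit followed the level of the gene. Of the 2640 genes with a mean under 50 counts, 469 (17.8%) were bounded within 2-fold. Of 6271 genes with 500 to 5000 counts, 6054 (96.5%) were. The distance from the estimate to either end of the interval was 1.43-fold at the median gene, without adjustment over genes. A smaller change could not be told from 0 at such a gene. Among genes of over 5000 counts this distance was 1.32-fold, and 418 of 618 (67.6%) were held within a 1.5-fold change.

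**Figure D3:**
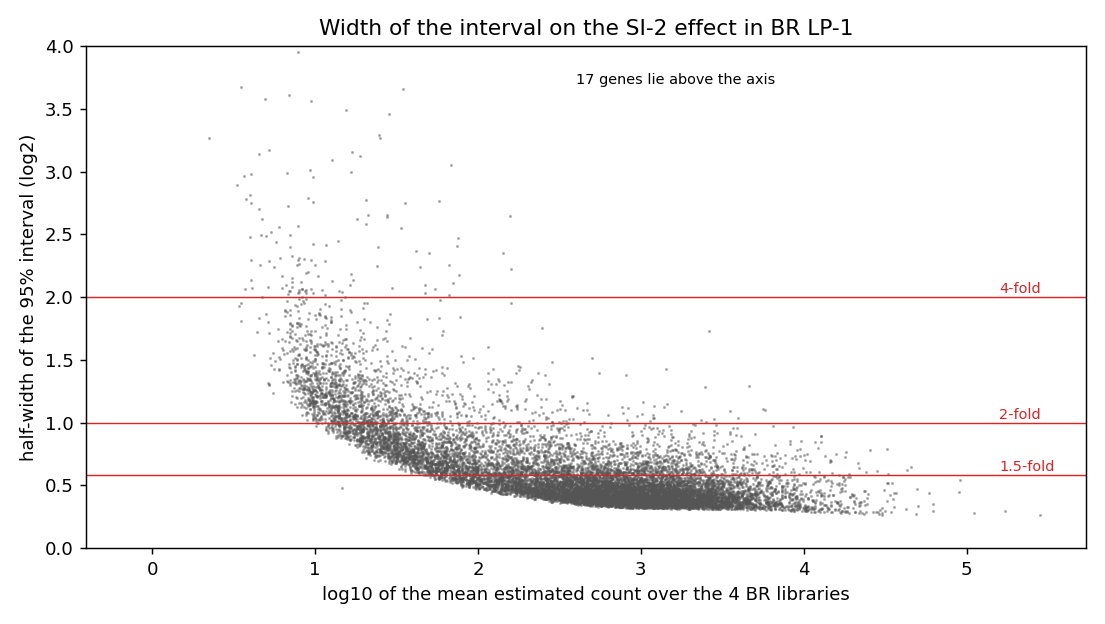
Distance from the log2 fold change to either end of its 95% interval (vertical axis, log2) against the mean estimated count of the gene over the 4 BR libraries (horizontal axis, log10), with 1 point for each tested gene and lines at 1.5-fold, 2-fold and 4-fold. The intervals narrow with the count, and 17 genes lie above the range drawn.

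NCOA3, the gene of SRC-3 itself, had 2831 and 3781 counts in the vehicle libraries and 4029 and 3590 in the SI-2 libraries. The lowest value was BR vehicle 1, and the vehicle library with 3781 lay above one of the SI-2 libraries, so the conditions overlapped. The log2 fold change was 0.18 ± 0.19 (SE), and the interval from -0.25 to 0.61 bounded the change between 0.839 and 1.52 times the vehicle level. NSD2 had 11355 and 15137 counts with vehicle and 13249 and 14711 with SI-2, both SI-2 values lying between the vehicle values, at a log2 fold change of 0.05 ± 0.15. Its interval ran from -0.30 to 0.39. The transcript estimates were too unsteady to say more. The NCOA3 transcript NM_181659.2 was estimated at 2154 and 0 counts in the vehicle libraries and at 1317 and 1570 in the SI-2 libraries. The leading NSD2 transcript, XM_011513557.2, was steadier, at 5457 and 6344 counts with vehicle and 6403 and 6120 with SI-2, which is 41.6% to 48.3% of the gene's counts.

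None of the 14 genes of the SRC-3 axis passed the test. The log2 fold change was positive for 12 and negative for 2, against 6902 and 6994 over all genes. The median was 0.163 against -0.001 over all genes. The acetyltransferase gene CREBBP had 2562 and 2997 counts with vehicle and 3807 and 3095 with SI-2, at a log2 fold change of 0.28 ± 0.18. SETD2, which adds the third methyl group to lysine 36, had 1937 and 2403 against 2999 and 2551 (0.33 ± 0.18). CARM1 had 1181 and 1246 against 1311 and 1333 (0.09 ± 0.18). These 3 genes were higher in each SI-2 library than in either vehicle library, 3 of 14 members against 10.7% of all genes, and in CREBBP and SETD2 it was BR SI-2 1 that stood high. EP300 (0.23 ± 0.20), ASH1L (0.25 ± 0.19), the methyltransferase genes NSD1 (0.29 ± 0.22) and NSD3 (0.19 ± 0.19), and the other p160 coactivators NCOA1 (0.15 ± 0.19) and NCOA2 (0.09 ± 0.19) overlapped between conditions. So did PRMT1 (-0.02 ± 0.20) and the lysine 36 demethylase genes KDM2A (0.12 ± 0.19) and KDM2B (-0.08 ± 0.18). All 14 intervals lay within a 2-fold change. The list median was 0.064 without BR vehicle 1 and 0.049 without BR SI-2 1, and in WT cells it was 0.157.

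**Figure D4:**
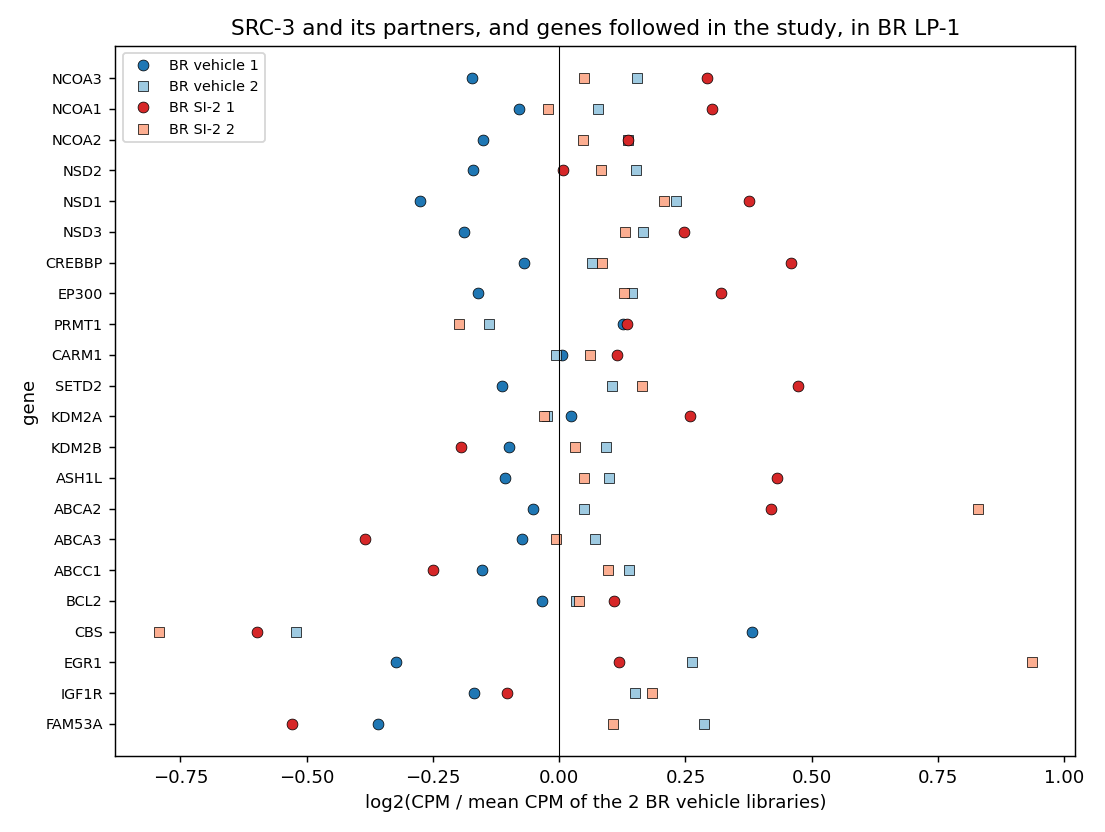
Level of the tested genes of the SRC-3 axis and of 8 genes followed in the study, as log2 of CPM over the mean CPM of the 2 BR vehicle libraries (horizontal axis), with 1 point for each BR library. For most genes the SI-2 and vehicle points overlap, and CBS, SETD2 and CREBBP are among those whose conditions do not overlap.

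The efflux pumps and survival genes that the study followed showed no change past the test. This set of 14 genes was chosen by the study on these samples, so its direction is not independent evidence, and 9 of them had enough counts to be tested. For some of these genes the study also reports qPCR in BR cells given SI-2 and chromatin immunoprecipitation, neither examined here. ABCC1, the pump also called MRP1, had 2569 and 3346 counts with vehicle and 2476 and 3320 with SI-2. Each SI-2 value lay close to the vehicle value of its own replicate number, and the log2 fold change was -0.07 ± 0.17, with an interval from -0.46 to 0.33. ABCA3, a lipid transporter, had 2029 and 2390 against 1688 and 2312 (-0.18 ± 0.20). ABCA2 was near the limit of detection at 7 and 8 counts against 10 and 14. ABCB1, which encodes P-glycoprotein, was at 0 and 0 against 1 and 3 counts, and ABCG5 was at 1 to 3 counts throughout, so for these pumps no difference was detectable at this depth. ABCC3 had 1 and 7 counts with vehicle and 4 and 25 with SI-2, where the 25 belongs to BR SI-2 2.

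BCL2, the anti-apoptotic gene at the outer mitochondrial membrane, had 6522 and 7276 counts with vehicle and 7417 and 7460 with SI-2. In CPM both SI-2 values were the higher ones, at 407 and 388 against 369 and 386, where the second library of each condition nearly met, and the log2 fold change was 0.07 ± 0.17. CBS, which makes cystathionine from homocysteine, had 775 and 441 against 405 and 373. Both SI-2 values were the lower ones, and the log2 fold change of -0.69 ± 0.36 (unadjusted p = 0.0898 by edgeR) fell to -0.18 without BR vehicle 1. IGF1R, the receptor for insulin-like growth factor, had 2128 and 2825 against 2293 and 2950 (0.05 ± 0.24). EGR1 (5 and 8 against 7 and 13) and FAM53A (12 and 20 against 11 and 18) had few counts, and CCL4 had 0 or 1 in every BR library. TNC, the matrix protein tenascin C, had 9 and 6 counts with vehicle and 7 and 32 with SI-2, and the 32 again belongs to BR SI-2 2, beside the collagens described above.

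The 33 tested genes of the ABC transporter family had a median of -0.061, with 3 above both vehicle libraries, 3 below both and none past the test. These shares, 9.09% each way, lay near the 10.7% and 11.2% of all genes. Among those with the smallest p were ABCD2, at 2465 and 5271 counts against 5280 and 5107 (0.41 ± 0.32), and ABCC2, at 36 and 56 against 99 and 39 (0.57 ± 0.45). In ABCD2 the vehicle libraries differed more than 2-fold from each other. The anti-apoptotic BCL2 family (5 tested, median 0.087) and its pro-apoptotic members (10 tested, median 0.161) gave no call either. MCL1, the survival gene on which myeloma cells lean, had 23079 and 34934 counts with vehicle and 38660 and 35641 with SI-2, at 0.33 ± 0.26 overall and 0.09 without BR vehicle 1. Another anti-apoptotic gene, BCL2L1, had 1219 and 1093 against 1360 and 1158 (0.09 ± 0.17). The BH3-only gene PMAIP1, which encodes NOXA, had 670 and 641 against 1062 and 642 (0.35 ± 0.37), with BR SI-2 1 alone standing high. HRK had 376 and 135 against 159 and 151 (-0.78 ± 0.56), with BR vehicle 1 alone standing high, and BAK1 had 1336 and 1319 against 1748 and 1348 (0.19 ± 0.19). The 17 caspases and inhibitors of apoptosis had a median of 0.042 and all 17 intervals lay within 2-fold.

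Immediate early genes, which encode short-lived transcription factors switched on within minutes of a signal, had the highest median of the lists with at least 5 tested genes. It was 0.401 over 19 genes, 18 of them positive, against 6902 of 13896 over all genes. In 6 of 19 each SI-2 library was higher than either vehicle library (31.6%, against 10.7% of all genes), with 0 lower in each. None passed the adjusted test. JUND had 941 and 1134 counts with vehicle and 2986 and 1267 with SI-2, at a log2 fold change of 1.02 ± 0.35 (unadjusted p = 0.0165 by edgeR). Both SI-2 values were the higher ones, but the size rests on BR SI-2 1, and it was 0.21 without that library. JUN, the partner of FOS in AP-1, had 1140 and 3996 against 9352 and 3960. The 2 libraries with number 2 were nearly equal and the 2 with number 1 lay furthest apart, so the conditions overlapped (1.38 ± 0.57). IER2 had 821 and 917 against 1307 and 1061 (0.42 ± 0.17). In WT cells the list median was 0.204. The list median was 0.303 without BR vehicle 1 and 0.217 without BR SI-2 1, and stayed positive without either of the others (0.443 and 0.478).

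Nuclear receptors, the factors through which SRC-3 was first known, had a median of 0.150 over 33 tested genes, with 8 above both vehicle libraries (24.2%, against 10.7% of all genes) and 1 below (3.03%, against 11.2%). NR1D2, a clock repressor, had 1355 and 1725 against 2508 and 1820 (0.47 ± 0.25). NR1D1 had 227 and 252 against 340 and 296 (0.38 ± 0.21), and NR2F1 had 120 and 231 against 264 and 248 (0.52 ± 0.28). Without BR SI-2 1 the log2 fold change fell to 0.16 for NR1D2 and to 0.23 for NR1D1. For NR2F1 it fell to 0.14 without BR vehicle 1. Targets of the glucocorticoid receptor had a median of 0.304 over 12 genes, 4 of them above both vehicle libraries (33.3%, against 10.7% of all genes) and none below. The clock gene PER1 had 108 and 316 counts with vehicle and 359 and 415 with SI-2 (0.85 ± 0.39), KLF9 had 467 and 572 against 831 and 620 (0.45 ± 0.26), and CDKN1C had 122 and 150 against 212 and 175 (0.48 ± 0.34). PER1 fell to 0.29 without BR vehicle 1, and without BR SI-2 1 KLF9 fell to 0.18 and CDKN1C to 0.29. The median of the glucocorticoid receptor targets fell to 0.027 without BR SI-2 2. Targets of retinoid, vitamin D and oxysterol receptors, by contrast, had a median of 0.026 over 10 genes. No gene of the 3 lists passed the test. In WT cells 8 of the 33 nuclear receptors were above both WT vehicle libraries and 3 below, with a median of 0.080. Of the 12 glucocorticoid receptor targets, 3 were above there and 0 below, as were 3 and 0 of the 10 other targets. The WT shares over all genes were 10.9% above and 12.3% below.

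NF-kB feedback genes had a median of 0.148 over 23 genes, with 4 above both vehicle libraries (17.4%, against 10.7% of all genes) and 0 below. RELB had 1273 and 1965 against 2328 and 2013 (0.40 ± 0.21) and ICAM1 had 1935 and 2551 against 3133 and 2719 (0.36 ± 0.18). TNFAIP2 had 18 and 17 against 8 and 258, which is a rise in BR SI-2 2 alone. The median was -0.034 without BR vehicle 1. In WT cells it was 0.144, with 7 of the 23 genes above both WT vehicle libraries and 0 below. The WT shares over all genes were 10.9% and 12.3%. Cholesterol and fatty acid synthesis had a median of 0.079 over 34 genes, 25 positive, against 6902 of 13896 over all genes. ACSS2, which makes acetyl-CoA from acetate, had 204 and 292 against 527 and 305 (0.73 ± 0.28), and fell to 0.22 without BR SI-2 1. CYP51A1 had 4442 and 5542 against 7054 and 5809 (0.34 ± 0.18), and HMGCS1 had 4762 and 6955 against 8981 and 6756 (0.40 ± 0.25).

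Among the lists with at least 5 tested genes, cytosolic ribosomal protein genes were the one in which the libraries were most steadily ordered. None of the 79 genes passed the test and the median was only -0.078 on the log2 scale. Yet 75 of 79 log2 fold changes were negative, against 6994 of 13896 over all genes. Both SI-2 libraries lay below both vehicle libraries for 35 genes (44.3%), against 11.2% of all genes, with 0 above. The genes of a list this uniform move together, so the count does not stand for 79 separate observations. RPS29 had 3120 and 2615 counts with vehicle and 2408 and 2544 with SI-2 (-0.25 ± 0.17). RPL38 had 2529 and 2601 against 2124 and 2405 (-0.22 ± 0.14), and RPS23 had 11425 and 12342 against 10774 and 10059 (-0.22 ± 0.14). In all 3 both SI-2 libraries were the lower ones. Together the 79 genes took 5.997% and 6.116% of counts in the vehicle libraries and 5.70% and 5.94% in the SI-2 libraries, which do not overlap, although 2 libraries against 2 cannot give a p below 0.333 in an exact permutation test. The median ran from -0.108 to -0.064 when each BR library was left out. All 79 intervals lay within 2-fold. In WT cells the median was -0.060, with 26 genes below both vehicle libraries and 0 above. The WT shares over all genes were 12.3% below and 10.9% above.

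Ribosomal protein messages are known for a run of pyrimidines at the start of the transcript, the terminal oligopyrimidine tract, through which their translation is adjusted to growth conditions. The 30 bases around the RefSeq start site (15 before it and 15 from it on, on the strand of the gene, GRCh38.p14) are given for the 3 genes named above. Runs of at least 5 pyrimidines (C or T) are in capitals.
RPS23 (chr5:82278340-82278369, minus strand): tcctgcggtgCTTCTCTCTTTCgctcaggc
RPL38 (chr17:74203663-74203692, plus strand): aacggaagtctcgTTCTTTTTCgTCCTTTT
RPS29 (chr14:49598696-49598725, minus strand): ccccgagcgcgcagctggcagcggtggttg
RPS23 and RPL38 hold such a run across the start, and RPS29 holds none in this window. A run of at least 5 pyrimidines on the gene's strand within 10 bases of the start was found in 38.5% of the 27305 promoters of the table. Only 63 of the 79 ribosomal protein genes had an entry, under 80% of the list, so a share over the list would be void and is not given. A match is a description of these letters and not a cause.

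Ribosome biogenesis genes under MYC had a median of -0.138 over 24 genes, with 2 below both vehicle libraries (8.33%, against 11.2% of all genes) and 0 above. NOP16 had 594 and 399 against 341 and 371 (-0.53 ± 0.30), and DKC1 had 4643 and 4027 against 3448 and 4073 (-0.25 ± 0.18). SRM, which makes spermidine, had 2327 and 1224 against 1434 and 1215 (-0.47 ± 0.34). Without BR vehicle 1 NOP16 was at -0.17. The list median was -0.029 without BR vehicle 1 and -0.034 without BR SI-2 1, and in WT cells it was -0.135. DNA replication genes had a median of -0.104 over 39, with 8 below both vehicle libraries (20.5%, against 11.2% of all genes) and 2 above (5.13%, against 10.7%). MCM4, of the replicative helicase, had 10377 and 10667 against 8366 and 10488 (-0.20 ± 0.14). MCM7 had 9434 and 6611 against 6860 and 6638 (-0.29 ± 0.21), and the histone mRNA binding gene SLBP had 4008 and 3777 against 2690 and 3932 (-0.28 ± 0.20). In MCM4 and SLBP it was BR SI-2 1 that was low, and the list median was 0.014 without that library. In WT cells it was 0.030.

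Genes of the secretory and amino acid programmes, which are heavily used in plasma cells, had negative medians, and in each of these lists the median changed sign without BR vehicle 1. The amino acid response, the genes that ATF4 switches on when amino acids run short, had a median of -0.241 over 35 genes, with 6 below both vehicle libraries (17.1%, against 11.2% of all genes) and 0 above. ATF4 and ASNS were named here after their values were seen. ATF4 had 20038 and 12410 counts with vehicle and 13810 and 11875 with SI-2 (-0.38 ± 0.30). ASNS, asparagine synthetase, had 13951 and 7109 against 10372 and 6453 (-0.37 ± 0.35). In both genes BR vehicle 1 was the highest library, and BR SI-2 1 came next, above both libraries with number 2. The mitochondrial enzyme gene PCK2, at 4449 and 3025 against 2616 and 2775 (-0.52 ± 0.26), and the arginine transporter gene SLC7A1, at 6399 and 4942 against 4474 and 4956 (-0.31 ± 0.22), did not overlap in CPM. Without BR vehicle 1 the list median changed sign, to 0.140, and without BR vehicle 2 it was -0.528.

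The cytosolic aminoacyl-tRNA synthetases had a median of -0.206 over 20 genes and 0.085 without BR vehicle 1. The chaperones and unfolded protein response genes of the endoplasmic reticulum had a median of -0.185 over 33 genes, which was 0.199 without BR vehicle 1 and also changed sign without BR SI-2 2, to 0.075. DERL3, which moves misfolded proteins out of the endoplasmic reticulum, had 3941 and 1889 counts with vehicle and 2046 and 1722 with SI-2 (-0.68 ± 0.37). Its neighbour in that route, SEL1L, had 9608 and 4788 against 6356 and 4513 (-0.45 ± 0.33), and SEC61B, of the translocation channel, had 2111 and 1277 against 1484 and 1320 (-0.32 ± 0.25). Both libraries with number 1 were above both with number 2 in SEL1L, SEC61B and DERL3, whatever the treatment.

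The proteasome is the target of bortezomib. Over 42 subunit and assembly genes the median was -0.063, with 8 below both vehicle libraries (19.05%, against 11.2% of all genes) and 0 above, none past the test, and 41 of 42 intervals within 2-fold. PSMB6, a catalytic subunit, had 1435 and 628 against 892 and 555 (-0.56 ± 0.41), where the numbers again differed more than the treatments. PSMD14, a deubiquitinase of the lid, had 1425 and 1376 against 1300 and 1209 (-0.19 ± 0.18), and PSMD8 had 2113 and 1261 against 1617 and 1213 (-0.30 ± 0.29). The median was -0.008 without BR vehicle 1.

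**Figure D5:**
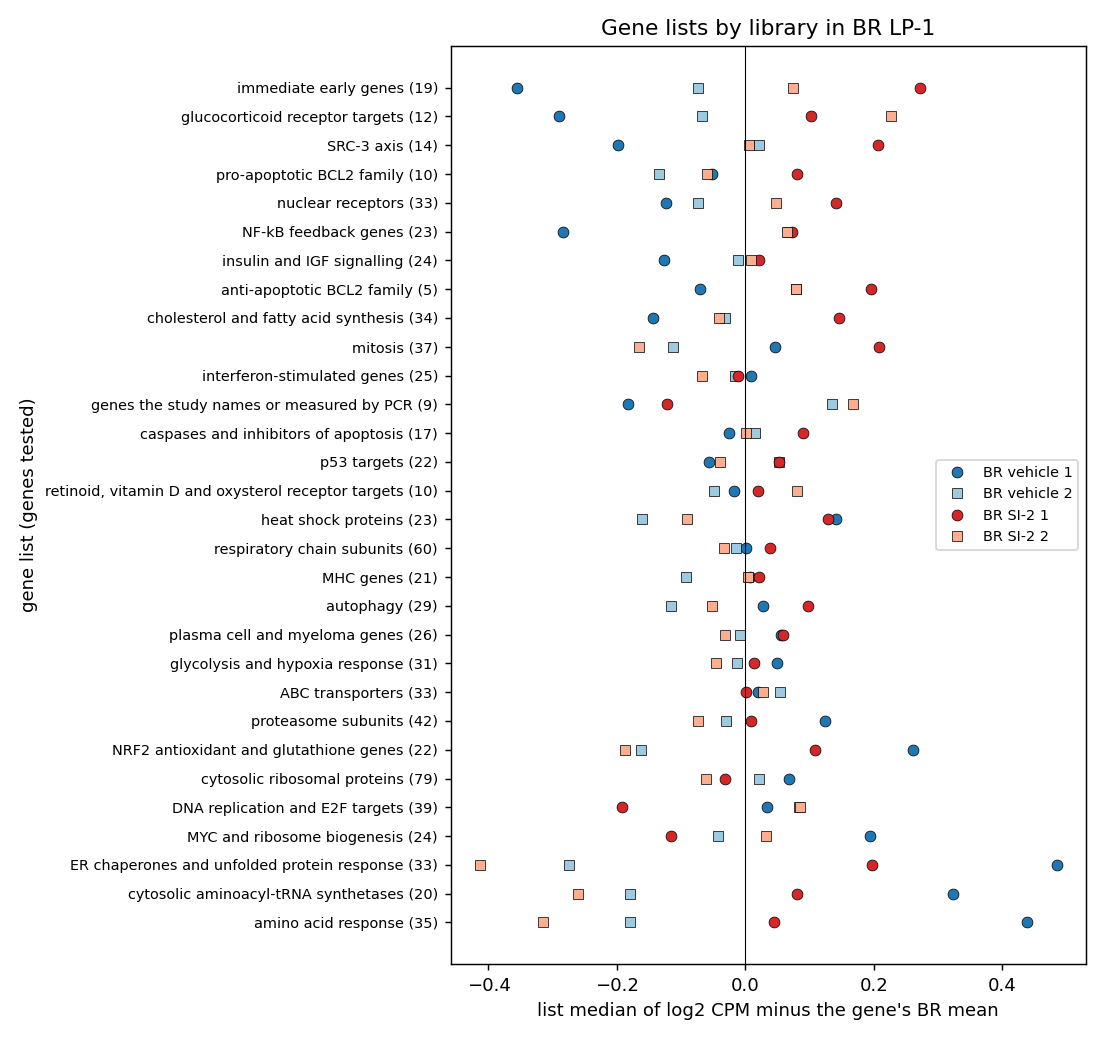
Median over each of 30 gene lists (those with at least 5 tested genes, number tested in brackets) of log2 CPM minus the gene's mean over the 4 BR libraries (horizontal axis), with 1 point for each BR library. In the amino acid response and endoplasmic reticulum lists the libraries part by replicate number. In the immediate early, glucocorticoid receptor target and ribosomal protein lists the SI-2 points lie on one side of the vehicle points. The same holds for nuclear receptors, for retinoid, vitamin D and oxysterol receptor targets, and for insulin and IGF signalling.

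The medians of the lists not yet described lay between -0.075 and 0.103. They were -0.075 for NRF2 antioxidant and glutathione genes, -0.042 for glycolysis and the hypoxia response, 0.023 for heat shock proteins, 0.021 for the respiratory chain, 0.058 for mitosis, 0.031 for p53 targets, 0.048 for interferon-stimulated genes, 0.017 for MHC genes, 0.004 for autophagy and 0.103 for insulin and IGF signalling. The plasma cell and myeloma genes had -0.018 over 26, with 2 above both vehicle libraries (7.69%, against 10.7% of all genes) and 0 below, and 24 of 26 intervals within 2-fold. No gene of these lists had an unadjusted p under 0.05. Of the remaining marker lists, 2 B cell, 2 T and NK cell, 1 myeloid, 1 stromal or endothelial and 2 erythroid genes had enough counts to be tested, and none passed.

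Ranked by p among genes of at least 50 counts whose conditions did not overlap, the 12 highest and the 12 lowest genes are given as a description. Of the 12 higher ones, 4 were among those found almost only in BR SI-2 2: SPARC (9 and 4 against 39 and 581), C1R (50 and 43 against 68 and 301), PIGR (21 and 21 against 28 and 242) and IGFBP4 (12 and 15 against 15 and 225). The matrix genes SPARCL1 (68 and 87 against 121 and 222) and PCOLCE (110 and 102 against 148 and 234) were also highest in that library. COL14A1 (109 and 91 against 359 and 139) was highest in BR SI-2 1, as was JUND. The rest were closer between the SI-2 libraries. ZNF506 had 30 and 44 counts against 63 and 73 (0.84 ± 0.27), FHDC1 had 60 and 77 against 129 and 109 (0.77 ± 0.26), and STON1 had 48 and 54 against 97 and 79 (0.75 ± 0.26). The remaining one was the read-through gene C8orf44-SGK3.

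Of the 12 lower genes, CORO7-PAM16 is described with the read-through genes. CCPG1, an autophagy receptor of the endoplasmic reticulum, had 4681 and 3215 counts with vehicle and 2423 and 2727 with SI-2 (-0.66 ± 0.23, unadjusted p = 0.0192 by edgeR). AHNAK, a very large scaffold protein gene, had 128434 and 112794 against 99931 and 102330 (-0.29 ± 0.12). SLC7A7, of cationic amino acid export, had 140 and 125 against 73 and 105 (-0.62 ± 0.23). WDR4, of a tRNA methyltransferase, had 316 and 333 against 220 and 269 (-0.45 ± 0.18). The F-box genes FBXO4 (135 and 148 against 82 and 106) and FBXO27 (113 and 99 against 68 and 74) were lower by 0.63 and 0.62. ZNF33B (993 and 784 against 587 and 686), C11orf1 (473 and 453 against 328 and 392) and LOC100996709 (185 and 184 against 146 and 102) had log2 fold changes of -0.53, -0.40 and -0.60. Without BR vehicle 1 the log2 fold change was -0.33 for CCPG1, -0.31 for ZNF33B and -0.16 for AHNAK. For LOC100996709 it was -0.34 without BR SI-2 2 and -0.94 without BR SI-2 1. NPIPB13 (374 and 315 against 248 and 237) and TBC1D3K (85 and 110 against 52 and 70) belong to families of near-identical copies, so their counts are uncertain.

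The smallest p of the whole comparison belonged to CORO7-PAM16, a read-through gene, whose transcripts join those of the neighbouring genes CORO7 and PAM16. It had 173 and 57 counts with vehicle and 0 and 0 with SI-2 (adjusted p = 0.508 by edgeR). In WT cells it had 215 and 226 against 77 and 51, also lower with SI-2. In BR cells it was at least 39.9-fold lower with SI-2, against a floor of 3 counts per library. This bound was 18.9-fold without BR vehicle 1 and 61.0-fold without BR vehicle 2. The counts that follow are from BR cells. CORO7, which shares its sequence, had 6168 and 6249 counts with vehicle and 5894 and 6561 with SI-2, and PAM16 had 224 and 204 against 206 and 215. With the 3 genes summed, the counts were 6565 and 6510 against 6100 and 6776, and the log2 fold change was -0.06 ± 0.21. C8orf44-SGK3 had 53 and 54 against 89 and 140 (1.05 ± 0.28), and SGK3 had 367 and 178 against 295 and 85. Summed with its parent genes, the log2 fold change changed sign, to -0.19 ± 0.28. Of 49 tested read-through genes, 11 (22.4%) had an unadjusted p under 0.05, against 156 of the 13847 other genes (1.13%), and 0 did once they were summed with their parents. The division of shared reads between such genes and their parents was made by the authors' estimation and is uncertain.

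The SI-2 difference in BR cells could not be told from that in WT cells. The test of the difference between the 2 effects called 0 of 13896 genes (0%), and 74 (0.533%) had an unadjusted p under 0.05. DESeq2 called 1 gene, CORO7-PAM16, which was lower with SI-2 in both lines and whose count depends on how shared reads were divided. For NCOA3 the effect in BR minus that in WT was -0.05, for NSD2 -0.11, for ABCC1 -0.14 and for BCL2 -0.12, none with an unadjusted p under 0.05. Some list medians lay on the same side of 0 in both and some did not, and no difference between list medians was tested. The medians in BR and WT cells were -0.241 and -0.191 for the amino acid response, -0.185 and -0.249 for the endoplasmic reticulum genes, and 0.304 and 0.172 for glucocorticoid receptor targets. They were on opposite sides for DNA replication (-0.104 and 0.030), heat shock proteins (0.023 and -0.109) and ABC transporters (-0.061 and 0.025).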

How the data were processed

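RNA from LP-1 cells was extracted with Trizol and sequenced on the BGISEQ-500 platform. The submitters' processing notes name BWA, Bowtie2, RSEM and hg19. The authors deposited estimated counts per gene and per transcript, in which a read that could come from several features is split between them, and FPKM, the count scaled by transcript length and library size. Tables of the authors' own comparisons, which hold their fold changes and q-values, were not used.

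Counts were rounded. Of 18564 genes, 13896 passed filterByExpr by condition and were tested in 1 fit over the 4 conditions with the quasi-likelihood test of edgeR 4.0.16, TMM scaling (factors 0.971 to 1.058) and Benjamini-Hochberg adjustment. A standard error is the log2 fold change over the root of its F statistic. The steps were tested on simulated data. Alternatives were upper-quartile scaling, library size only, no filter, a CPM minimum of 1, DESeq2 1.42.0, a block on the replicate number, limma 3.58.1 on log2(FPKM + 1) and log2(FPKM + 0.1), only the 4 BR libraries, and each library left out. A table without the genes found almost only in BR SI-2 2 was added after the data were seen.

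The genes and lists were chosen with earlier results of these data known. The naming rule took the SRC-3 axis and the genes the study followed, the 12 genes of smallest p in each direction with at least 50 counts and no overlap, and the 3 of smallest p in other lists, of which 14 lists are named in the text. The values of 1 gene that the study followed are counted in the summaries and not reported here. Start sites were copied from a RefSeq table (GRCh38.p14), used for sequence only. Counting intervals and floors (3 counts) cover counting error only.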

Additional observations from a re-analysis of the deposited data

Results flagged for a closer look

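The 159 genes found almost only in BR SI-2 2 were set apart because 144 of them were too low in the other libraries to enter the tests. COL1A1, COL3A1, TGM2 and PAEP led those not tested, with 1032, 998, 346 and 340 counts in that library. In the 7 other libraries, vehicle and WT included, the highest count of these 4 genes was 6. The 7 T and NK cell markers found summed to 300 counts in BR SI-2 2 and to 195 to 263 in the other BR libraries. Most of each sum was KLRD1, at 220 counts against 175 to 242. GNLY, a cytotoxic lymphocyte gene named after its values were seen, was at 40 against 5 in each of the others.

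ABCA2 and C8orf44-SGK3 had SI-2 values above both vehicle values in BR cells and below both in WT cells, although for ABCA2 the nearest WT values were 12 counts in each condition and 0.66 CPM to the digits given. The log2 effect of SI-2 in BR minus that in WT was 0.90 for ABCA2 (unadjusted p = 0.188 by edgeR), on 7 and 8 counts against 10 and 14 in BR cells and 13 and 12 against 12 and 9 in WT cells. For C8orf44-SGK3 it was 1.90 (unadjusted p = 8.93e-04 by edgeR, adjusted p = 1), on 127 and 178 counts with vehicle and 81 and 90 with SI-2 in WT cells. Neither difference passed the adjusted test, and the estimate of the latter rests on how reads shared with SGK3 were divided.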

How the results depend on the processing

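Upper-quartile scaling, library size only, both filters, the replicate block, limma on both FPKM scales, the 4 BR libraries alone and the table without the 159 genes kept the count of calls at 0. DESeq2 called 1 gene in BR cells and 1 in BR minus WT. Leaving out each library gave 0 to 67 calls, 83 to 562 genes at an unadjusted p under 0.05 and 8289 to 10643 genes bounded within 2-fold. The unadjusted count was 377 with no filter, 102 with DESeq2 and 111 with the BR libraries alone. With the replicate number as a block 0 genes were called, 233 had an unadjusted p under 0.05 and 11236 were bounded within 2-fold. Deviations of same-numbered libraries correlated at 0.35 between the BR conditions and at 0.41 between the WT conditions. Between a BR and a WT condition they correlated at -0.10 to 0.19. The labels give only a shared number. The block took the same shift between numbers for BR and WT cells, and it changed no call. A block with its own shift for BR cells was not tested, so the pairing of same-numbered BR libraries was not modelled separately.

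Of 86 tested genes named in the text, 24 changed sign when 1 library was left out, given here as the range of the log2 fold change over the 8 omissions. Without BR vehicle 1 the sign changed for NCOA2 (-0.058 to 0.24), NSD2 (-0.12 to 0.21), ABCD2 (-0.025 to 0.99), HRK (-1.4 to 0.2), SEL1L (-0.9 to 0.18), SEC61B (-0.67 to 0.13), PSMB6 (-1.1 to 0.2), PSMD8 (-0.66 to 0.17), MCM7 (-0.57 to 0.026), SRM (-0.89 to 0.11), ASNS (-0.81 to 0.24) and ATF4 (-0.72 to 0.047). Without BR SI-2 1 it changed for NCOA1 (-0.029 to 0.3), KDM2A (-0.037 to 0.26), ABCC2 (-0.31 to 1.1), BAK1 (-0.061 to 0.4) and PMAIP1 (-0.11 to 0.7). Without either BR SI-2 1 or BR vehicle 2 it changed for KDM2B (-0.19 to 0.024), ABCC1 (-0.25 to 0.09), FAM53A (-0.53 to 0.18) and BCL2L1 (-0.082 to 0.23), and without either BR SI-2 2 or BR vehicle 1 for PRMT1 (-0.2 to 0.13) and IGF1R (-0.11 to 0.21). TNFAIP2 ran from -1.1 to 3.8 and was negative without BR SI-2 2. PRMT1 was also positive with library size only (0.0024) and on both FPKM scales (0.003). C8orf44-SGK3 was -0.1927 when summed with its parent genes. The causes were not tested.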
